A study of Mus musculus with 8 samples.

Results

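SMC1 binding was described at 66 mouse genes for developmental transcription factors outside the Hox clusters, of 21896 protein-coding genes with a position in the RefSeq annotation of GRCm38. A gene was included by its symbol: Dlx, Lhx, Irx, Otx, Emx, Meis, Pbx, Msx or Zic followed by a digit, a symbol of the sine oculis family (such as Six2), or a symbol starting with Nkx, Pou3f or Pou4f. The rule gave 13 families, the largest being Nkx with 14 genes and Lhx with 8. Chromatin immunoprecipitation followed by sequencing (ChIP-seq) had been run with an antibody to SMC1 on wild-type primary cortical neurons, prepared from embryonic day 16 Swiss-Webster mice and used at day 13 in vitro. The treated cultures received 50 µM NMDA, an agonist of one class of glutamate receptor, in the bath for 10 min and recovered for 50 min in medium without drug, and the resting cultures received no treatment. Each condition had 2 ChIP samples and 2 input samples, and 1 deposited list of the peaks that the ChIP replicates had in common, with 1684 peaks after NMDA and 12359 at rest. Library depth is unknown from these lists. ChIP peaks carry no expression values, so the labelled cell type was not checked against marker genes.

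SMC1 is a core subunit of cohesin, the ring complex that extrudes loops of chromatin and often stops at sites bound by the insulator protein CTCF. Homeobox genes encode factors that bind DNA through a homeodomain and assign regional and cell identity in the embryo, in many cases under distant enhancers that lie in gene-poor surroundings. The Dlx, Irx and sine oculis genes sit mostly in small genomic clusters whose members share enhancers, whereas most of the other genes stand alone. The Zic genes match the rule but encode zinc finger proteins, not homeodomain proteins. Several of the families act in the forebrain: Dlx and Lhx6 in inhibitory interneurons, Emx2 and Lhx2 in the patterning of the cortex, and Pou3f2 and Pou3f3 in upper-layer cortical neurons.

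Start sites covered by an SMC1 peak are shown first, because they are where the binding data meet the genes' own promoters. RefSeq windows of GRCm38.p6, from 250 bases before to 50 bases after a start, were matched for 47 of the 66 genes (71.2%). That is too few for a statement on promoter sequence over the whole set, so such a check is void here and the 4 windows under a peak are described singly. An NMDA peak covered all 300 bases at Meis1 and at Emx2 and 256 bases at Pou3f3. A resting peak covered all 300 bases at Meis1 and at Pou3f2 and 84 bases at Pou3f3. An NMDA peak thus lay over a start window of 3 of the 47 genes (6.38%, against 5% of 17491 protein-coding genes with a window), and a resting peak over that of 3 (6.38%, against 12.7%). The windows are chr11:19018920-19019219 (minus strand) for Meis1, chr19:59458440-59458739 (plus) for Emx2, chr1:42695518-42695817 (plus) for Pou3f3 and chr4:22488317-22488616 (minus) for Pou3f2, each printed 5′ to 3′ with matches on either strand to 2 short motifs in capitals, the GC box GGGCGG and the homeodomain core TAATTA.
Meis1: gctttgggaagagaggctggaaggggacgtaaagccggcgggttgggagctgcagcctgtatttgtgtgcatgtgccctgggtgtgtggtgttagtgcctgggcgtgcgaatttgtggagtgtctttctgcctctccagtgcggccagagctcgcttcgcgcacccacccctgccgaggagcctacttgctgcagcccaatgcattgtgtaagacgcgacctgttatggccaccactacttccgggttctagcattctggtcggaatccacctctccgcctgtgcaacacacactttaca
Emx2: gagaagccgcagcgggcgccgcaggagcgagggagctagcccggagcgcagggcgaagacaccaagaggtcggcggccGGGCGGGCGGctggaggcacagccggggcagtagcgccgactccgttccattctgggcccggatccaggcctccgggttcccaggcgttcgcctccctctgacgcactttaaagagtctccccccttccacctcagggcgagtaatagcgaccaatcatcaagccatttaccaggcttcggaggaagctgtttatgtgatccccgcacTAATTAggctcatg
Pou3f3: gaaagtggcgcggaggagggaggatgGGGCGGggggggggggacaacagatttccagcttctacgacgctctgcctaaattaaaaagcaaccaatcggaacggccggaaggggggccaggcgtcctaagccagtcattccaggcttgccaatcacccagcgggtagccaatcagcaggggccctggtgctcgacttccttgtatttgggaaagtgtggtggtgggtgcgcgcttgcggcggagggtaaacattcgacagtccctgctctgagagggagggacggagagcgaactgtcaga
Pou3f2: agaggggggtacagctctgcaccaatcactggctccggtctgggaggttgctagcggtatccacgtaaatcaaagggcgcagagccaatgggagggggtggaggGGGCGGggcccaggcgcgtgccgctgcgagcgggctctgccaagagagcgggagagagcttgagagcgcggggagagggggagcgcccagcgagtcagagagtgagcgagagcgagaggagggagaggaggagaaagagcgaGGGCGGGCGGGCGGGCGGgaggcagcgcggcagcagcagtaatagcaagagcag

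The Emx2 window held a TAATTA core shortly after its start and held overlapping GC boxes. Pou3f3 and Pou3f2 held GC boxes and no TAATTA, and Meis1 held no match. Of 21262 such windows of protein-coding genes, 46.2% held GGGCGG and 4.53% held TAATTA. A search on both strands for the TATA box TATAAA, the cAMP response element TGACGTCA and the POU octamer ATGCAAAT found no match in these 4 windows. Those motifs were present in 12.6%, 2.23% and 1.66% of all the windows, in the same order. A match is a description of the letters, and no match says only that the letters are absent from the window. The CpG count was 15 at Meis1, 26 at Emx2, 18 at Pou3f3 and 24 at Pou3f2. The median was 28 over all windows under an NMDA peak, 25 over all under a resting peak and 13 over all the windows.

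Without matching for gene length, the share of these genes with SMC1 nearby was close to that of protein-coding genes in general. After NMDA 7 of 66 had a peak within 10 kb of the gene body (10.6%, exact 95% interval 4.37 to 20.6%), against 8.93% of all protein-coding genes. At rest 28 of 66 had one (42.4%, 30.3 to 55.2%), against 38.2%. NMDA peaks were also found at 6 of those 28 genes (21.4%, 8.30 to 41.0%), against 19% of the 8369 protein-coding genes that had a resting peak. The remaining 22 had a resting peak only, Msx3 had an NMDA peak only, and 37 genes had neither. No test was made, since there is 1 list per condition and the genes were chosen with earlier results of these data known. The intervals cover counting error over genes, and neighbouring genes are not independent.

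The counts were also taken at a shorter and a longer distance. Within 2 kb, 6 of 66 genes had an NMDA peak (9.09%, against 7.21% of all protein-coding genes) and 19 of 66 a resting peak (28.8%, against 28.6%). Within 50 kb the NMDA count was still 7 (10.6%, against 16.9%), while the resting count reached 46 (69.7%, against 62.3%). The genes without a nearby NMDA peak were thus far from one in most cases: the median distance to the nearest NMDA peak was 507 kb over the 66 genes, against 343 kb over all protein-coding genes. The median distance to the nearest resting peak was 21.9 kb, against 24.2 kb.

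**Figure D1:**
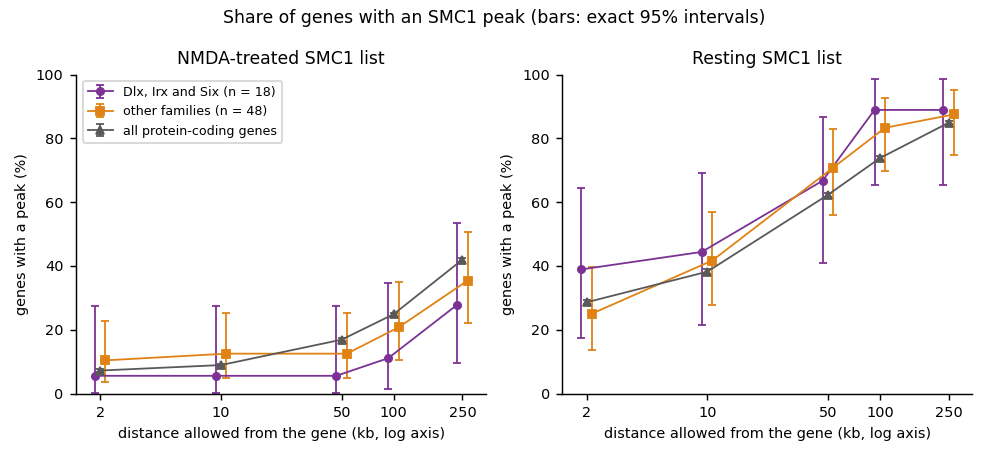
Percentage of genes with an SMC1 peak (y axis) by the distance allowed from the gene body (x axis, kb, log scale), in the NMDA list (left) and the resting list (right), for the 18 Dlx, Irx and sine oculis genes, the 48 genes of other families and all protein-coding genes, with exact 95% intervals. At 10 kb the NMDA shares were 5.56%, 12.5% and 8.93% and the resting shares 44.4%, 41.7% and 38.2%, with intervals of the first 2 groups that overlap throughout.

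These genes are short, with a median length of 5.88 kb against 17.1 kb for all protein-coding genes, and a short gene offers less sequence in which to find a peak. Among the 47 genes under 10 kb, 5 had an NMDA peak (10.6%, 3.55 to 23.1%) and 20 a resting peak (42.6%, 28.3 to 57.8%). Of all protein-coding genes under 10 kb 5.33% had an NMDA peak and 23.7% a resting peak. Without olfactory and vomeronasal receptor genes, the shares of short genes were 6.38% and 28.1%. Among the 19 genes of 10 kb or longer, 2 had an NMDA peak (10.5%, against 11.0% of all long genes) and 8 a resting peak (42.1%, against 46.5%). The split by length was added after the data had been seen and was not tested.

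The 7 genes with an NMDA peak came from 6 families and held 1 NMDA peak each. Peak strength is the authors' −log10 p of the peak caller summed over the 2 replicates, and each replicate's value follows in the order of the list's columns, which carry no replicate numbers. A −log10 p grows with library depth, so strengths can be ranked within a list, and NMDA and resting values set side by side show neither a change in binding nor its absence. The 7 NMDA strengths lay between 20.8 and 29.2, around the list median of 23.0, and 3 of the 7 exceeded it. The corresponding median over the 1956 protein-coding genes with an NMDA peak was 23.1.

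Irx5, a homeobox gene of heart, limb and neural patterning, had the strongest of these NMDA peaks. Its strength was 29.2 (13.4 and 15.8 in the replicates) and it lay 1296 bp from the gene, over the noncoding gene Crnde and within 1 kb of its start (chr8:92355594-92356500). The resting peak over the same place had 42.5 (17.1 and 25.4). A second resting peak with 20.2 (8.30 and 11.9) lay 338 bp beyond the other end of the gene. Irx5 was the only one of the 66 genes with an NMDA peak at a global irreproducible discovery rate (IDR) up to 0.01, a limit that 1.95% of protein-coding genes met.

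Meis1 encodes a three-amino-acid-loop-extension homeodomain protein, a partner with which Hox and other factors bind DNA. At Meis1 the NMDA peak had 26.1 (15.9 and 10.2) and covered the start (chr11:19018675-19020112), within a resting peak of 45.5 (17.7 and 27.9) that was 2643 bp wide. A further resting peak of 33.4 (9.30 and 24.1) lay 2418 bp past the Meis1 gene, within 1 kb of the start of the noncoding gene 8430419K02Rik. The paralogue Meis2 had 2 resting peaks and no NMDA peak, and Meis3 had neither kind. Those of Meis2 had 43.3 (22.6 and 20.7) at 4591 bp past the gene and 18.5 (9.30 and 9.18) inside it. The weaker lay within 1 kb of the start of the noncoding gene G630016G05Rik.

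The POU genes Pou3f1 and Pou3f3 carried both kinds of peak. At Pou3f1, known from Schwann cells and the nervous system, the NMDA peak of 22.3 (10.1 and 12.2) lay 149 bp from the gene (chr4:124656277-124657497) and overlapped a resting peak of 33.5 (18.2 and 15.3). Both peaks lay over the noncoding gene Gm2164. At Pou3f3 the NMDA peak of 20.8 (9.25 and 11.5) covered the start (chr1:42695562-42696377), within 1 kb of a start of the noncoding gene Gm46091. It overlapped the weakest of 4 resting peaks, all of which also lay over Gm46091. Those 4 had strengths of 33.4, 37.9, 24.7 and 35.3 along the chromosome, the most resting peaks of any of the 66 genes. Pou3f2 had 2 resting peaks and no NMDA peak: 32.9 (15.9 and 17.0) over its start and 20.1 (10.4 and 9.67) near its other end. Pou3f4, on the X chromosome, lay 2084 kb from the nearest resting peak, the longest distance in the set.

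Emx2 and Msx3 differed from the other 5 in that the NMDA peak met no resting peak. Among the 28 genes with a resting peak, 5 had an NMDA peak that overlapped a resting peak (17.9%, against 16.6% of all such protein-coding genes). The share of the whole NMDA list that met no resting peak is not given here, so this describes single genes. At Emx2, which sets positional identity along the cortex, the NMDA peak of 25 (15.5 and 9.50) covered the start (chr19:59458355-59459602). The resting peak of Emx2, with 66.4 (38.0 and 28.4), was centred 4193 bp upstream, over the antisense gene Emx2os. The NMDA peak of Emx2 also overlapped Emx2os. The NMDA peak assigned to Msx3, a dorsal neural tube gene, had 22.3 (12.2 and 10.1) but lay 9465 bp away (chr7:140036051-140036692), over the protein-coding genes Tubgcp2 and Zfp511 and close to a Zfp511 start. Its assignment to Msx3 rests on the 10 kb limit, and it falls out within 2 kb.

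**Figure D2:**
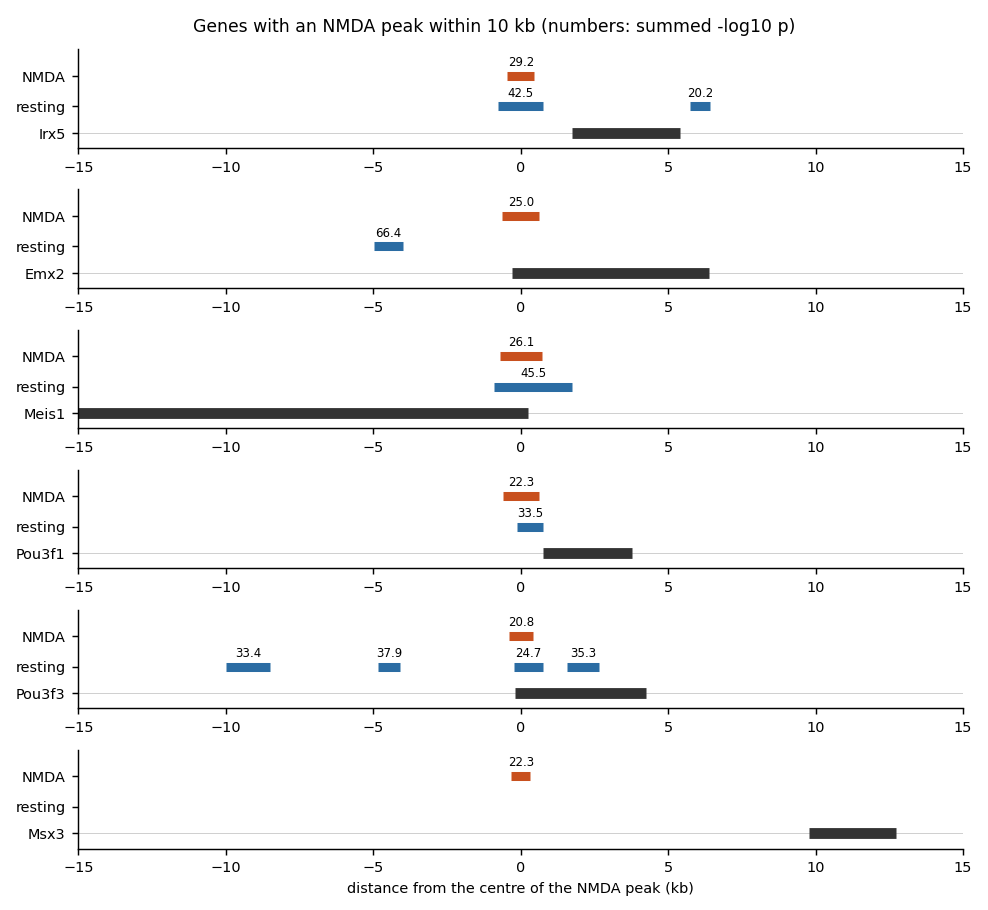
Positions of SMC1 peaks around 6 of the genes with an NMDA peak within 10 kb, as distance from the centre of the NMDA peak (x axis, kb), with NMDA peaks above resting peaks and the gene as a dark bar. Numbers are the summed −log10 p; NMDA and resting peaks overlap at Irx5, Meis1, Pou3f1 and Pou3f3, while the NMDA peaks of Emx2 (25) and Msx3 (22.3) have no resting peak over them.

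In the resting list the 28 genes were reached by 37 distinct peaks, of which 2 lay within 10 kb of both Zic2 and Zic5. Over the 28 genes the strongest peak had a median of 40.2, against 32.1 over the 8369 protein-coding genes with a resting peak. Of the 28, 21 exceeded the median of the whole list (30.2), which counts every peak and not only a gene's strongest. Most of the 8369 genes exceeded it as well, since their own median of 32.1 lies above it. Taken singly, the 37 peaks had a median of 33.4. All 28 are chosen by having a peak, so this describes those genes and not the 66. With only the 1684 strongest resting peaks, as many as the NMDA list holds, 4 of the 66 genes had one (6.06%, against 6.46% of all genes): Dlx3, Six2, Lhx2 and Emx2. At an IDR up to 0.01 the resting count was 20 of 66 (30.3%, against 23.5%).

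**Figure D3:**
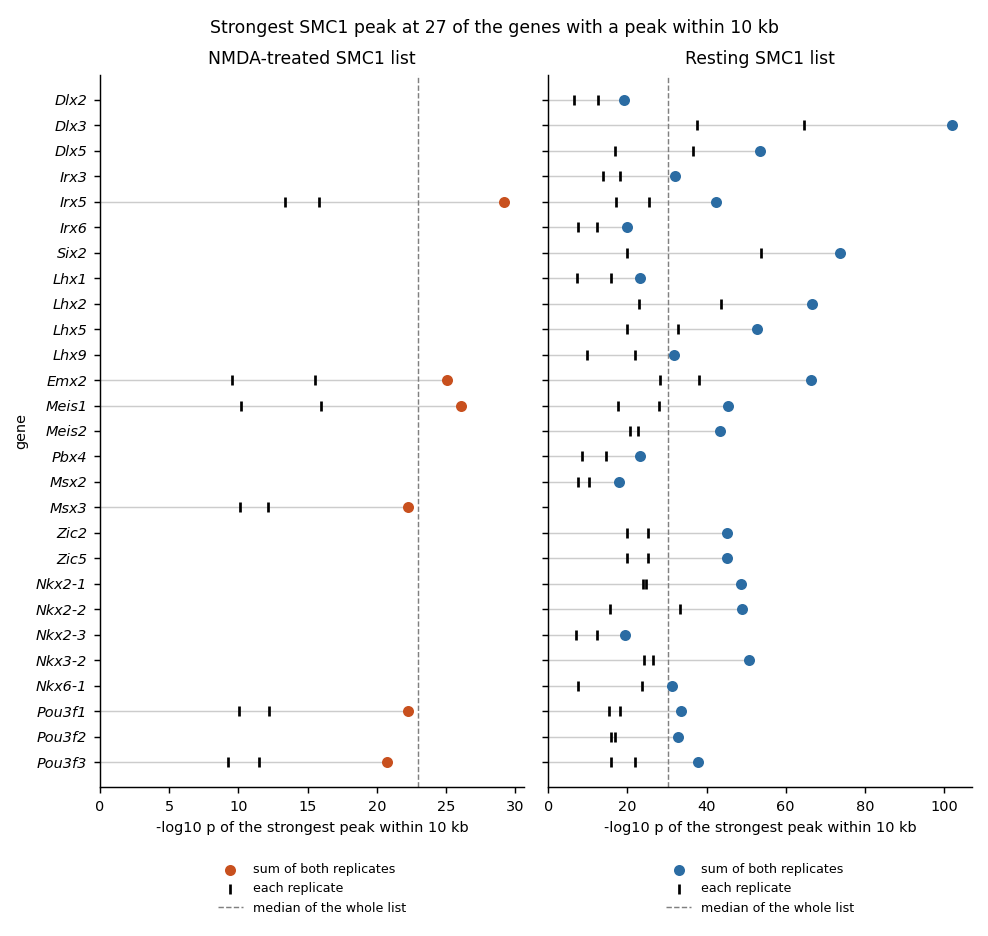
Strength of the strongest SMC1 peak within 10 kb of 27 of the genes with a peak in either list (x axis, −log10 p), NMDA list on the left and resting list on the right, ordered by family. Filled points are the sum over both replicates, ticks the 2 replicates, and the dashed line the median of the whole list (23.0 after NMDA, 30.2 at rest); Dlx3 stands highest at rest with 102.

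The clustered families were compared with the other genes, as neighbouring members of a cluster share regulatory surroundings. After NMDA 1 of the 18 Dlx, Irx and sine oculis genes had a peak (5.56%, 0.141 to 27.3%), against 6 of the 48 other genes (12.5%, 4.73 to 25.2%), a difference of −6.94 points (95% Newcombe interval −20.0 to 14.3). At rest 8 of the 18 had one (44.4%, 21.5 to 69.2%), against 20 of the 48 (41.7%, 27.6 to 56.8%), a difference of 2.78 points (−21.6 to 28.1). Both intervals include 0 and are wide, so these counts neither separate the groups nor show that they are alike. With clustering defined instead as another of the 66 genes within 100 kb, whatever the family, 0 of 21 genes had an NMDA peak (0 to 16.1%). Of the other 45, 7 had one (15.6%, 6.49 to 29.5%), and both intervals include the 8.93% of all protein-coding genes. Under this definition 9 of 21 genes (42.9%, 21.8 to 66.0%) and 19 of 45 (42.2%, 27.7 to 57.8%) had a resting peak, against 38.2%. Genes up to 1 Mb apart were also joined into loci, and a locus was counted where any of its genes had a peak within 10 kb. For NMDA peaks this gave 1 of 8 loci of the Dlx, Irx and sine oculis families (12.5%) and 6 of 42 others (14.3%). This remains a comparison of families: 7 of the 8 loci hold more than 1 gene, Six5 standing alone, and so do 6 of the 42. For resting peaks the counts were 6 of 8 (75%) and 19 of 42 (45.2%), a difference of 29.8 points, where a locus with several genes has more chances to be counted. Resting peaks within a locus but more than 10 kb from its genes, present in loci of both kinds, were not counted.

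In each of the Dlx gene pairs the nearby resting peaks lay on the outer side of 1 gene, and the interval between the paired genes held none. These intervals, which carry enhancers of the pairs, measured 9.43 kb for Dlx1 and Dlx2, 9.83 kb for Dlx5 and Dlx6 and 15.2 kb for Dlx3 and Dlx4. Dlx3, a gene of skin, hair and bone formation, had the strongest resting peak of the set, with 102 (64.5 and 37.5), rank 174 of the list, 345 bp from the gene (chr11:95118350-95119772). A second peak there had 42.8 (24.8 and 18). Dlx5 had 53.4 (36.6 and 16.8) at 2820 bp and Dlx2 had 19.3 (12.7 and 6.60) at 1155 bp (rank 11391 of 12359). Their partners Dlx4, Dlx6 and Dlx1 had no peak within 10 kb, the nearest lying 20.7, 16.9 and 13.9 kb away, in the same order. The NMDA list held no peak within 100 kb of any Dlx gene. At that distance 12 of the 66 genes (18.2%) and 24.9% of all protein-coding genes had one, so most genes had none.

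The paired Iroquois clusters, each of 3 genes for neural and heart patterning factors, differed from each other. On chromosome 8, Irx3, Irx5 and Irx6 each had a resting peak less than 1 kb from the gene. Irx3 had 32.1 (18.2 and 13.8) at 335 bp, within 1 kb of the start of a noncoding gene, and Irx6 had 19.9 (12.4 and 7.44) at 284 bp. The Irx6 peak and the Irx5 peak of 20.2 ranked 11133 and 10865 of 12359, near the low end of the list. On chromosome 13, the span of Irx1, Irx2 and Irx4 (1311 kb) held a single resting peak, with 67.2 (43.9 and 23.3), 98.5 kb from Irx4 in the interval between Irx2 and Irx4. Irx1 and Irx2 lay 499 and 526 kb from the nearest resting peak. The nearest NMDA peak was 2217 kb from Irx1, and those of Irx2 and Irx4 were farther still.

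In the sine oculis family, Six2, which maintains the nephron progenitors of the kidney, had a resting peak of 73.7 (53.9 and 19.8) inside the gene (chr17:85664558-85665419). Its neighbour Six3, a forebrain and eye gene, had none within 10 kb, and the nearest lay 38.4 kb away. Six5, alone on chromosome 7, was 58.7 kb from the nearest NMDA peak and 58.6 kb from the nearest resting peak. Those 2 peaks overlap each other, with 35.1 (25.1 and 10.0) after NMDA and 112 (58.0 and 53.8) at rest.

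**Figure D4:**
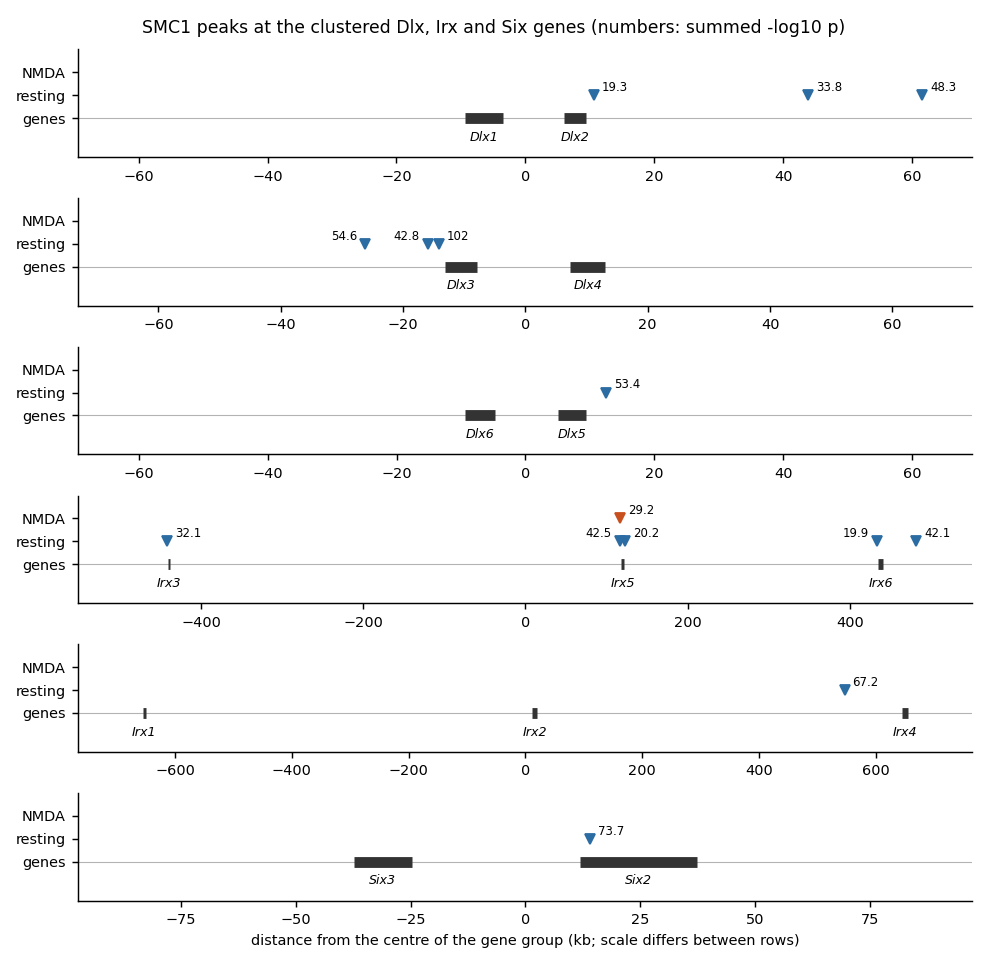
Maps of 6 multi-gene Dlx, Irx and sine oculis loci, as distance from the centre of each gene group (x axis, kb, with a scale of its own in each row); triangles mark peaks of the NMDA list (upper line) and resting list (lower line) and numbers give the summed −log10 p. Peaks lie outside the paired Dlx genes, beside each of Irx3, Irx5 and Irx6, and at 67.2 far from Irx1 and Irx2, and the NMDA list has 1 peak in these maps, at Irx5 (29.2).

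Outside the clustered families the strongest resting peak belonged to the LIM homeobox gene Lhx2, a selector of cortical identity, with 66.7 (23.0 and 43.7) at 6041 bp past the gene. Lhx5, active in early forebrain and hippocampal development, had 52.7 (32.9 and 19.8) inside the gene, and Lhx9 had 31.8 (21.9 and 9.86). Lhx1 had 23.2 (7.27 and 15.9), within 1 kb of a start of the neighbouring gene Aatf. The interneuron genes Lhx6 and Lhx8 had none within 10 kb, nor had Lhx3 or Lhx4, the nearest peaks of these 4 lying 19.5 to 72.2 kb away.

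The Nkx genes include regional regulators of the ventral neural tube and of heart, lung, gut and skeleton, and none of 14 had an NMDA peak (exact 95% interval 0 to 23.2%, against 8.93% of all protein-coding genes) and 5 had a resting peak (35.7%, 12.8 to 64.9%, against 38.2%). Nkx3-2, a skeletal gene, had 50.7 (26.4 and 24.3) at 4021 bp, and Nkx2-2, which acts in ventral progenitors and the oligodendrocyte lineage, had 48.8 (33.3 and 15.6) inside the gene. Nkx2-1, which specifies the medial ganglionic eminence, lung and thyroid, had 48.7 (24.0 and 24.7) at 4112 bp. The 2 replicates were thus close to each other at Nkx3-2 and Nkx2-1 and further apart at Nkx2-2. Nkx6-1 had 31.3 (23.8 and 7.44), and Nkx2-3 had 19.3 (12.3 and 7.0).

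Zic2 and Zic5 are adjacent, and both were assigned the resting peak of 45.1 (19.9 and 25.2) that lies over the Zic2 end facing Zic5. Of the genes without a nearby resting peak, 10 lay more than 100 kb from one (15.2% of the 66, against 26.2% of all protein-coding genes). They included Irx1, Irx2, Pou3f4, Otx1 and Otx2 (224 and 286 kb), Pou4f1 and Pou4f2 (346 and 194 kb), and Zic1 and Zic4 (781 and 758 kb). Otx genes pattern the forebrain and midbrain, and Pou4f genes act in sensory neurons. None of the 2 Otx and 3 Pou4f genes had a peak within 10 kb in either list, and families this small cannot be told from the 38.2% of all protein-coding genes with a resting peak (exact 95% intervals 0 to 84.2% and 0 to 70.8%).

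**Figure D5:**
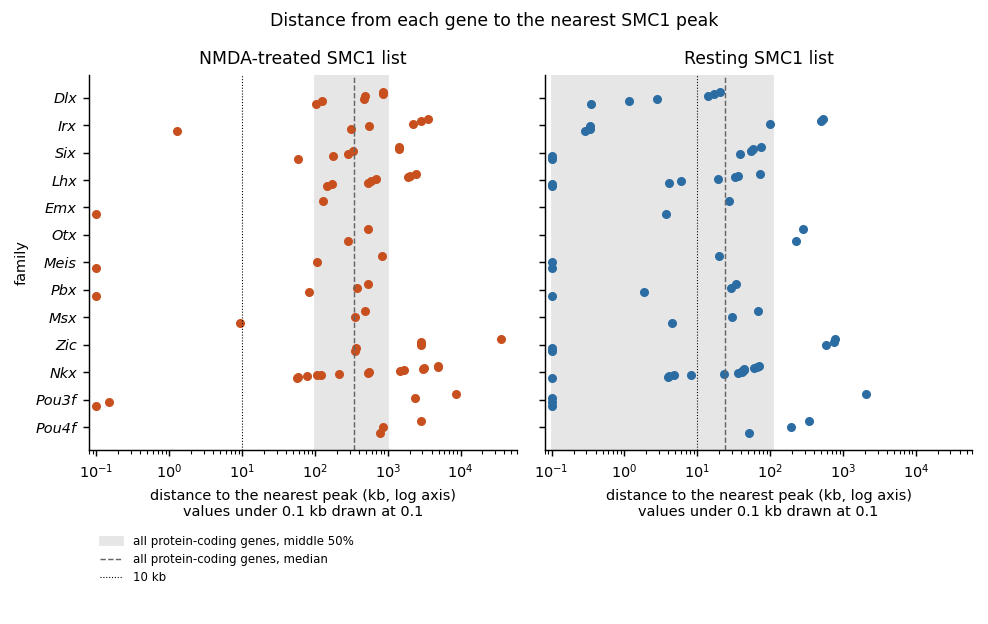
Distance from each of the 66 genes to the nearest SMC1 peak (x axis, kb, log scale, values under 0.1 kb drawn at 0.1), by family, in the NMDA list (left) and the resting list (right); the shaded band runs from the lower to the upper quartile of all protein-coding genes and the dashed line marks their median. In the resting panel, the 10 genes more than 100 kb from a peak lie to the right of the band.

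The peaks were also placed relative to the genes' bodies. Of the 7 NMDA peaks 4 lay over or inside one of the genes and 3 beside one, and of the 37 resting peaks 14 lay over or inside and 23 beside. No share over the peaks near all protein-coding genes is set beside these counts. The 66 genes are also shorter (median 5.88 kb, against 17.1 kb), so the counts are not read as a trait of the set. Noncoding genes often lay under the peaks: 4 of the 7 NMDA peaks (57.1%) and 15 of the 37 resting peaks (40.5%) overlapped a long noncoding or antisense RNA gene. Over all peaks within 10 kb of a protein-coding gene the shares were 14.2% and 10.6%. The surroundings of these genes also hold more such annotation, which covered 18.1% of the bases within 10 kb of the 66 genes, against 5.32% for all protein-coding genes. Its part in the overlap was not tested.

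Genes that work with these factors were counted in the same way. Of 25 cofactor genes (the LIM cofactors Ldb1 and Ldb2, and the Lmo, Ssbp, Eya, Dach, Tle, Pknox and Tgif genes), 5 had an NMDA peak (20.0%, 6.83 to 40.7%, against 8.93% of all genes) and 18 a resting peak (72.0%, 50.6 to 87.9%, against 38.2%). Of 50 further homeobox, paired and related developmental genes, 6 had an NMDA peak (12%) and 24 a resting peak (48%). Cofactor genes were not matched for length with other genes, and none of these shares was tested.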

How the data were processed

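SMC1 ChIP-seq peaks of NMDA-treated and resting cortical neurons were used, 1 list per condition made from 2 replicates. Reads were handled with Trimmomatic, BWA and SAMtools, checked with FastQC, and peaks were called with MACS2, all of unstated version, on mm10 or GRCm38.p6, per the submitters' processing notes. No parameter of these tools is given in the sources used here. The deposited lists have the layout of the IDR tool, with the −log10 p of each replicate, their sum, and the −log10 of a global IDR whose minimum corresponds to an IDR of 0.05. Peaks that failed this limit and the input libraries were not analysed here. The labels call the replicates biological and do not say whether they came from separate litters.

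Genes and noncoding genes came from the RefSeq table of GRCm38.p6, and strand and sequence from RefSeq start windows. Peaks were assigned to every gene whose body was at most 10 kb away, and peaks of both lists overlapped at 1 bp or more. Loci joined genes up to 1 Mb apart. Shares have exact Clopper-Pearson 95% intervals, and differences have Newcombe intervals, from Python 3.11.15 with SciPy 1.17.1. No p-value was computed. The distance calculation was tested on simulated data. The genes, lists and named-gene rule were chosen with earlier results of these data known. Named genes are those with an NMDA peak, all Dlx, Irx and sine oculis genes, and the 20 genes with the strongest resting peaks. Some genes under this rule are counted in the totals but are not reported here. Others were named after their values were seen. Alternative distances, IDR limits, list lengths, overlap rules and definitions of a cluster were tried.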

Additional observations from a re-analysis of the deposited data

How the results depend on the processing

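No paired analysis was possible because each list joins both replicates and no result comes from a test; for the same reason no replicate could be left out. A value is taken as moved where it left the 95% interval of the reported one. The resting share of 42.4% was 28.8% within 2 kb, 69.7% within 50 kb, 30.3% at an IDR up to 0.01 and 6.06% with the resting list at the NMDA list's length. The corresponding shares over all protein-coding genes were 28.6%, 62.3%, 23.5% and 6.46%. Split by length, the resting share was 42.6% for genes under 10 kb, against 23.7% of all such genes. For genes of 10 kb or longer it was 42.1%, against 46.5%. At an IDR up to 0.01 the NMDA share was 1.52% (1 gene) in place of 10.6%, and the share with both was 5% in place of 21.4%, against 6.54% of all protein-coding genes. The NMDA share stayed between 9.09% and 11.5% under the other settings tried, which were both distances, leaving out the Zic genes and the split at 10 kb of length. The share over all protein-coding genes ran from 5.33%, for genes under 10 kb, to 16.9%, within 50 kb. Which of the 2 shares was higher thus depended on the setting. Asking that the NMDA peak overlap a resting peak gave 17.9% with both, against 16.6%, and 14.3%, against 15.1%, with an overlap over at least 50% of the NMDA peak. The clustered-minus-other difference in resting share was 29.8 points with genes joined into loci. It lay between −4.17 and 13.9 points under the other settings, so its sign depended on the setting. For NMDA peaks it lay between −15.6 points, with clustering defined as another of the genes within 100 kb, and 5.56 points, and it was above 0 only at the stricter IDR, where it rests on Irx5. The median strength of the strongest resting peak was above that of all protein-coding genes under each setting, but the gap varied. It was 40.2 against 32.1 as reported, 33.5 against 31.1 within 2 kb and 42.9 against 35.9 within 50 kb. At an IDR up to 0.01 it was 45.3 against 42.1. The median distance to a resting peak was 39.3 kb at the stricter IDR, against 68.6 kb for all protein-coding genes. Library depth is unknown from the lists, so a gene without a listed peak is not shown to lack SMC1.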
